A study of Mus musculus with 14 samples.

Results

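The genes described here are 10 targets or parts of the ATF4 amino acid stress response, measured in a mouse cell line. They were Atf4, Atf5, Atf3, Ddit3, Trib3, Chac1, Asns, Psat1, Phgdh and Slc7a11, out of 18808 protein-coding genes with an mm9 locus in the deposited files. They were picked by name after earlier RNA-seq results of these same libraries were known, so their RNA-seq values are a description and support no claim about them. Pulldown and histone values are separate measurements, although earlier results on them were known too. In the RNA-seq comparison 8 of the 10 were among 8519 genes with a matched locus in all 3 libraries and a mean of at least 1 FPKM, and in the pulldown comparison 9 of the 10 were among 5258 genes.

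The cell line is labelled LEPC, of C57BL/6 strain, grown for 3 passages. It was studied in 3 states, one overexpressing miR-93-5p, one overexpressing a mutant of that microRNA (called mutant here), and one control labelled scr. RNA-seq and a pulldown of microRNA-interacting mRNA were made in all 3 states, and chromatin immunoprecipitation (ChIP) of H3K4me3, H3K27me3 and H3K9me3 in miR-93-5p and scr cells. Each assay had 1 library per state from 1 line, so no difference below has a replicate check, and none was tested. For the pulldown samples, the genotype labels give these states while the titles do not mention overexpression, and the design text mentions biotin, so whether the microRNA itself served as bait is not stated in the sources used here. The labels state neither the altered bases of the mutant nor how the microRNAs were delivered, and the microRNA itself was not measured in these libraries.

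ATF4 is a basic leucine zipper (bZIP) transcription factor whose mRNA is translated more when eIF2 alpha is phosphorylated, the common step of the integrated stress response. GCN2, the kinase encoded by Eif2ak4, senses uncharged tRNA and so couples amino acid shortage to ATF4, while PERK responds to unfolded protein in the endoplasmic reticulum. ATF4 pairs with C/EBP proteins on a composite DNA element called the C/EBP-ATF response element (CARE), through which genes of amino acid synthesis, uptake and tRNA charging are switched on.

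The promoter sequences were shown because this element is the known feature shared by many ATF4 targets. The 10 genes had 12 RefSeq promoter windows of GRCm38.p6, with 2 each for Atf5 and Psat1, and each was 300 bases long, from 250 bases before the start to 50 from the start on. The CARE letters TGATGNAA were searched on both strands, and 5 of the 12 windows, in 5 genes, held them, against 1304 of 32851 windows over all genes (3.97%). The matches are in capitals, each with up to 20 bases on either side, 5′ to 3′ in the direction of the gene, and the Slc7a11 window held a pair of them in opposite orientations. A match describes the letters only and is not evidence of binding.
Trib3, chr2:152344033-152344066, minus strand: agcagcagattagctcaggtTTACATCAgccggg
Chac1, chr2:119351029-119351076, plus strand: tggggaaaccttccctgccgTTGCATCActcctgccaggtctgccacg
Atf3, chr1:191183416-191183463, minus strand: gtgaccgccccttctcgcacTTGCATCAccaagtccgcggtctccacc
Asns, chr6:7693205-7693252, minus strand: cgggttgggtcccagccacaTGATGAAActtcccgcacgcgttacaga
Slc7a11, chr3:50443633-50443699, minus strand: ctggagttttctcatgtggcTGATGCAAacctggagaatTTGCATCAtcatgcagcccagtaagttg

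Counting the start base as 0, the match lay at -193 to -186 in Chac1, at -110 to -103 in Atf3, at -23 to -16 in Asns and at 14 to 21 in Trib3, after the start. The Slc7a11 matches lay at -66 to -59 and at -47 to -40. The antioxidant response element core, TGACNNNGC, was in 2 of the 12 windows, those of Asns and Phgdh, against 12.4% of all windows, and the endoplasmic reticulum stress element was in none of the 12, against 0.119% of all. The overexpressed microRNA is shown because it defines the experiment, with its seed (bases 2 to 8) in capitals, from RefSeq on chromosome 5 of GRCm38.p6, minus strand.
miR-93-5p: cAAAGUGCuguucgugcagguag

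The deposited levels are FPKM of assembled loci, that is fragments scaled to transcript length and library size, each with a lower and an upper bound, and the range in brackets after a level is that pair of bounds. The fragments implied by the bounds summed to 15301761 in the miR-93-5p, 19513879 in the mutant and 14589704 in the scr RNA-seq library, and to 3814082, 5855469 and 5322228 in the pulldown libraries of those states. Cell type markers also differed between the RNA-seq libraries. The 3 of 4 epithelial markers compared (Krt8, Krt18 and Cdh1) summed to 432 FPKM in miR-93-5p, 540 FPKM in mutant and 995 FPKM in scr cells, and the hepatocyte factor Hnf4a stood at 7.22, 27.4 and 40.6 FPKM in those libraries. Alb, Ttr and Apoa1, the defining plasma proteins of hepatocytes, had no matched locus to compare, nor had the 3 endothelial markers. The 1 of 3 leukocyte markers compared, Csf1r, stood in the same 3 libraries at 1.16, 1.82 and 7.63 FPKM. The 1 of 3 mesenchymal markers, Vim, stood at 711, 784 and 1061 FPKM. The 2 of 3 biliary and progenitor markers, Spp1 and Sox9, had a sum of 1087, 1084 and 539 FPKM. Nearly all of it was Spp1, at 1076, 1077 and 531 FPKM, while Sox9 had another order, at 11.1, 6.91 and 8.22 FPKM. The part of these marker differences in the results below was not tested, and in bulk libraries fewer cells of a type and less RNA per cell cannot be told apart.

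In RNA-seq the mutant library stood highest by matched locus for every one of the 8 genes compared. The miR-93-5p library lay between mutant and scr for 6 of them. For Slc7a11, assembled in unequal numbers of pieces, FPKM summed over pieces was lowest in mutant, but such a sum grows with the number of pieces. On the log2(FPKM + 1) scale 5 of the 8 were at least 2-fold higher in mutant than in scr cells, where 2.62% of all 8519 genes were, and none was at least 2-fold lower, where 3.63% were. Between miR-93-5p and scr cells 2 were at least 2-fold higher (2.96% of all genes) and none lower (3.84%). Between miR-93-5p and mutant cells none was higher (1.85%) and 3 were lower (1.77%). The median log2 ratio of the 8 genes was 1.27 for mutant over scr, 0.43 for miR-93-5p over scr and -0.73 for miR-93-5p over mutant, against 0.014, 0.030 and 0.015 over all genes. These contrasts share libraries, and since RNA-seq chose the genes, nothing is read from the shares.

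**Figure D1:**
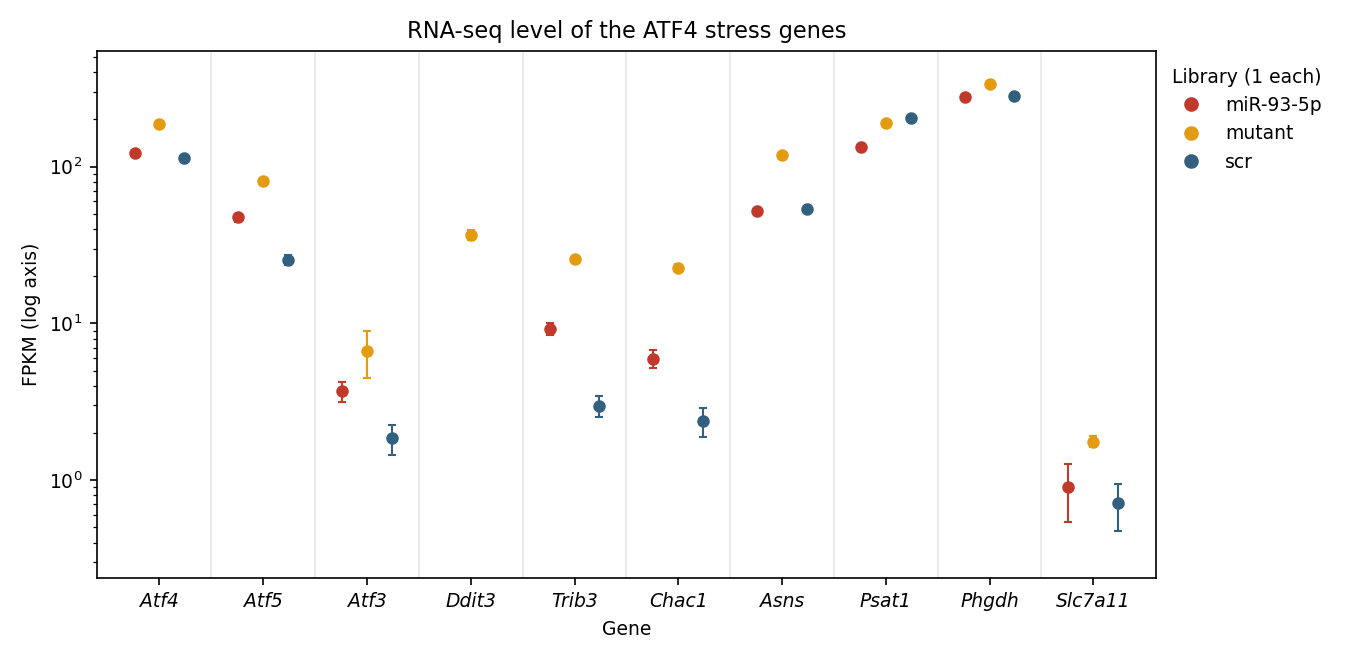
RNA-seq level of each of the 10 genes on a log axis of FPKM, 1 point per library with the deposited bounds as bars, in the order miR-93-5p, mutant and scr. Trib3 and Chac1 show the widest gap between mutant and scr, Ddit3 has a point in the mutant library alone, and Psat1 is highest in scr.

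Atf4 itself, the regulator (mm9 chromosome 15, 80085613 to 80087970, with mm9 positions also for the genes that follow), was abundant in every library, at 123 FPKM [119 to 126] in miR-93-5p, 187 FPKM [179 to 196] in mutant and 113 FPKM [107 to 119] in scr cells. It was thus higher in the mutant than in the other 2 libraries, with a log2 ratio of 0.73 ± 0.05 for mutant over scr and 0.12 ± 0.04 for miR-93-5p over scr. Errors of log2 ratios here come from the deposited bounds taken as 2 standard errors and hold no biological spread. In fragments implied by the bounds, the log2 ratios of Atf4 became -0.05 for mutant over scr and 1.73 for miR-93-5p over scr, and its ratio for miR-93-5p over mutant turned from -0.61 to 1.81.

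The genes that act upstream of ATF4 were described in the same way. Of the 8 eIF2 alpha kinases and regulators compared, none was 2-fold apart in FPKM in any pair of libraries, and their median log2 ratio was -0.047 for mutant over scr and 0.12 for miR-93-5p over scr. Eif2ak4 (GCN2) stood at 5.52, 4.97 and 7.93 FPKM in miR-93-5p, mutant and scr cells. Ppp1r15a (GADD34), which brings phosphatase to eIF2 alpha and is itself an ATF4 target, stood at 9.30 FPKM in miR-93-5p, 12.4 FPKM in mutant and 7.48 FPKM in scr cells. In implied fragments 1 of the 8 was at least 2-fold higher in mutant over scr and lower in miR-93-5p over mutant. That gene, named after its values were seen, was Eif2s1, eIF2 alpha itself, at 45.5 FPKM [28.5 to 62.4] in miR-93-5p, 51.6 FPKM [48.7 to 54.5] in mutant and 57.7 FPKM [23.0 to 92.5] in scr cells, with ratios of 5.66 and -4.76 in implied fragments.

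Atf5, a bZIP factor related to ATF4 that is also under translational control (chromosome 7, 52067626 to 52072028), stood at 47.4 FPKM [44.6 to 50.2] in miR-93-5p, 80.6 FPKM [76.7 to 84.5] in mutant and 25.4 FPKM [23.5 to 27.2] in scr cells. The 3 bounds did not overlap, and the log2 ratio was 1.63 ± 0.06 for mutant over scr and 0.88 ± 0.07 for miR-93-5p over scr. A neighbouring locus ran into the start of Atf5 in each library, and whether reads were counted by strand is not given in the sources used here, so reads of that overlap are uncertain. In implied fragments the Atf5 ratio for mutant over scr was 0.73, under the 2-fold limit.

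Atf3, a stress-induced bZIP repressor (chromosome 1, 192994174 to 193007219), was a low transcript, at 3.69 FPKM [3.15 to 4.23] in miR-93-5p, 6.70 FPKM [4.49 to 8.91] in mutant and 1.85 FPKM [1.45 to 2.25] in scr cells. Its log2 ratio was 1.43 ± 0.23 for mutant over scr and 0.72 ± 0.13 for miR-93-5p over scr. The wide bounds of the mutant value implied 36.8 fragments, against 186 in miR-93-5p and 84.0 in scr cells. The loci had similar spans, of 13006 bp in mutant, 13007 bp in miR-93-5p and 12824 bp in scr, while FPKM was highest in mutant. Implied fragments thus follow the width of the bounds and are not read counts. On that scale the mutant over scr ratio of Atf3 turned to -1.33 and its miR-93-5p over mutant ratio from -0.72 to 2.38.

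Ddit3 encodes CHOP, a bZIP factor of the death-promoting arm of the response (chromosome 10, 126727829 to 126733344). Its own locus was assembled in the mutant RNA-seq library alone, at 36.8 FPKM [33.9 to 39.6]. In the miR-93-5p and scr lists the only locus touching it was that of the neighbouring tRNA synthetase gene Mars1, at 35.7 and 40.4 FPKM, so no RNA-seq level of Ddit3 can be given for those cells and none is taken as 0. The pulldown libraries of all 3 states did hold a Ddit3 locus.

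The other bZIP factors that can pair with these proteins formed no uniform group. Of the 5 of 8 compared, none was 2-fold apart between mutant and scr, and their median log2 ratio was 0.56 for mutant over scr and 0.64 for miR-93-5p over scr. Cebpg, a partner of ATF4, stood at 30.5, 28.9 and 19.2 FPKM in miR-93-5p, mutant and scr cells. Cebpd differed from the ATF4 genes in order, at 3.28 FPKM in miR-93-5p cells, against 0.733 FPKM in mutant and 0.831 FPKM in scr cells.

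Trib3, a pseudokinase induced by ATF4 that feeds back to restrain it (chromosome 2, 152163157 to 152169768), stood at 9.28 FPKM [8.45 to 10.1] in miR-93-5p, 25.8 FPKM [24.6 to 26.9] in mutant and 2.99 FPKM [2.52 to 3.46] in scr cells. No bounds overlapped. The log2 ratio of Trib3 was 2.74 ± 0.09 for mutant over scr, 1.36 ± 0.10 for miR-93-5p over scr and -1.38 ± 0.07 for miR-93-5p over mutant. Its level exceeded that of 31.9% of compared genes in the miR-93-5p library, 66.0% in the mutant library and 6.69% in the scr library.

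Chac1, which breaks down glutathione (chromosome 2, 119176964 to 119180117), followed the same order, at 5.97 FPKM [5.17 to 6.76] in miR-93-5p, 22.6 FPKM [21.3 to 23.9] in mutant and 2.38 FPKM [1.88 to 2.89] in scr cells. Its log2 ratio was 2.80 ± 0.12 for mutant over scr, 1.04 ± 0.14 for miR-93-5p over scr and -1.76 ± 0.09 for miR-93-5p over mutant. Chac1 ranked 4 and Trib3 ranked 5 of 8519 genes by the mutant over scr ratio. Both kept their direction and their side of the 2-fold limit in implied fragments, with ratios for mutant over scr of 3.35 for Chac1 and 3.15 for Trib3.

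**Figure D2:**
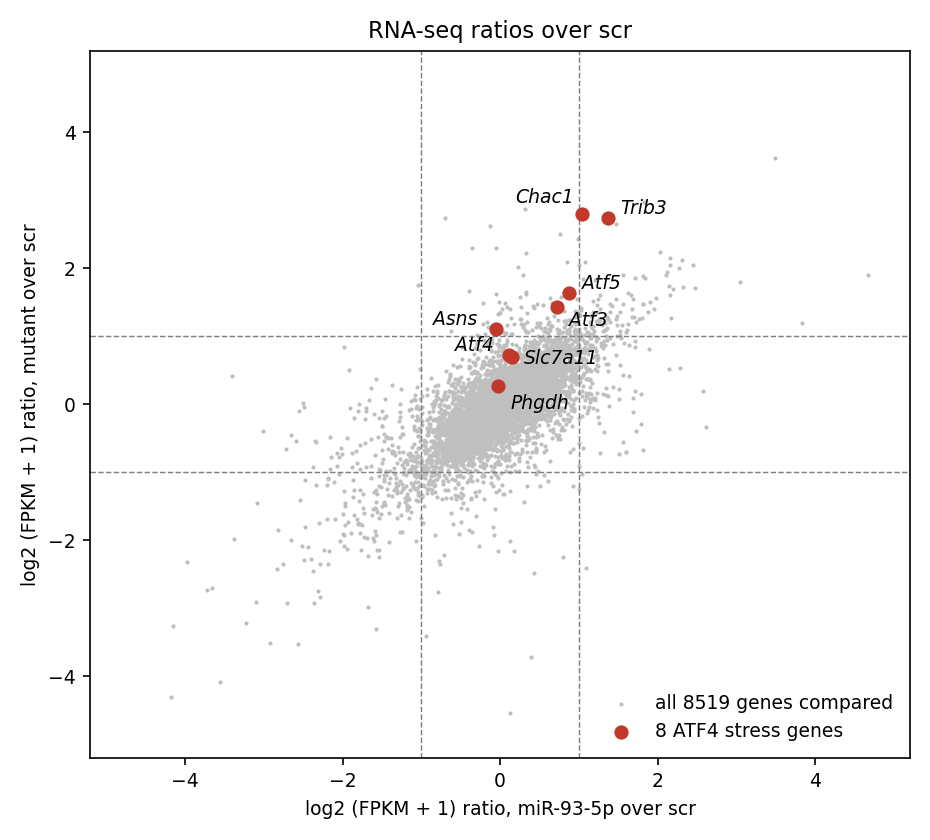
Log2 (FPKM + 1) ratio of mutant over scr (vertical) against that of miR-93-5p over scr (horizontal) for 8519 genes in grey and the 8 ATF4 stress genes in red, with dashed lines at 2-fold. Both axes have scr as denominator, so their joint slope is not read, and Chac1 at 2.80 and Trib3 at 2.74 stand at the top.

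The enzymes differed in order among the libraries. Asns, asparagine synthetase and a standard reporter of the GCN2 to ATF4 route (chromosome 6, 7625168 to 7643254), stood at 51.9 FPKM [49.9 to 53.9] in miR-93-5p, 118 FPKM [115 to 120] in mutant and 54.0 FPKM [52.0 to 56.0] in scr cells. It was higher in the mutant library alone, with log2 ratios of 1.11 ± 0.03 for mutant over scr and -0.06 ± 0.04 for miR-93-5p over scr, and of -1.17 ± 0.03 for miR-93-5p over mutant. Implied fragments gave 1.11, -0.17 and -1.26 for the same pairs.

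Phgdh, the first enzyme of serine synthesis (chromosome 3, 98117092 to 98143913), had the highest level given for any ATF4 stress gene in each RNA-seq library. Of the 8 compared it differed least between mutant and scr. It stood at 276 FPKM [271 to 281] in miR-93-5p, 338 FPKM [334 to 343] in mutant and 280 FPKM [275 to 285] in scr cells, a log2 ratio of 0.27 ± 0.02 for mutant over scr and -0.02 ± 0.02 for miR-93-5p over scr. Psat1, the next enzyme of that pathway (chromosome 19, 15979167 to 16021827), had another order, at 134 FPKM [131 to 137] in miR-93-5p, 190 FPKM [188 to 193] in mutant and 205 FPKM [202 to 208] in scr cells. The annotated mm9 gene reaches 21742 bp beyond the assembled locus, so Psat1 missed the matching rule and its value is that of its single locus, with log2 ratios of -0.10 for mutant over scr and -0.61 for miR-93-5p over scr. Psph, which completes serine synthesis, stood at 25.6, 45.2 and 14.5 FPKM in miR-93-5p, mutant and scr cells, highest in mutant.

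Slc7a11, the cystine transporter that supplies glutathione synthesis (chromosome 3, 50168857 to 50247535), had the lowest matched level given for any ATF4 stress gene in each library. It was assembled in pieces in 2 of the 3 libraries. Its matched locus stood at 0.901 FPKM [0.540 to 1.26] in miR-93-5p, 1.76 FPKM [1.62 to 1.90] in mutant and 0.714 FPKM [0.477 to 0.951] in scr cells. The mutant library covered the gene with 1 locus, while the miR-93-5p library held 5 pieces and the scr library 4, so the matched pieces are not the same stretch. Summed over pieces, FPKM was 4.43 in miR-93-5p, 1.76 in mutant and 2.70 in scr cells. With these sums the log2 ratio for mutant over scr turned from 0.69 to -0.42 and that for miR-93-5p over mutant from -0.54 to 0.97. FPKM is already scaled to length, so the sum grows with the number of pieces and is not a level of the gene. The highest single piece was 1.08 FPKM in miR-93-5p and 0.791 FPKM in scr cells. Summed in the same way, the implied fragments were 180 in miR-93-5p, 630 in mutant and 94.2 in scr cells.

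Within a library the FPKM order of the genes was nearly fixed. By matched locus, and for Psat1 by its single locus, it was the same in all 3 RNA-seq libraries. From high to low it ran Phgdh, Psat1, Atf4, Asns, Atf5, Trib3, Chac1, Atf3 and Slc7a11, with Ddit3 between Atf5 and Trib3 in the mutant. The bounds of neighbours overlapped for Psat1 and Atf4 in mutant cells, for Asns and Atf5 in miR-93-5p cells, and for Trib3 with Chac1 and Chac1 with Atf3 in scr cells. The added 1 FPKM reduces the ratios of low genes such as Trib3, Chac1, Atf3 and Slc7a11 more than those of abundant ones.

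The wider amino acid program was described through lists chosen for their known roles. Among amino acid transporters 6 of 10 were compared, with a median log2 ratio of 0.69 for mutant over scr. In that pair 2 were at least 2-fold higher (2.62% of all genes). Slc7a1, the arginine and lysine transporter, stood at 13.4, 28.9 and 6.21 FPKM in miR-93-5p, mutant and scr cells, and Slc1a4, a transporter of neutral amino acids, at 8.52, 17.0 and 5.11 FPKM. Both followed the order of Trib3 and Chac1. Slc6a9, the glycine transporter, followed that of Asns instead, at 9.03 FPKM in miR-93-5p, 18.6 FPKM in mutant and 9.13 FPKM in scr cells. In implied fragments the ratio of Slc1a4 for mutant over scr was 2.37, against 1.56 in FPKM.

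Of the 12 aminoacyl tRNA synthetase list genes compared, 11 lay above 0 in mutant over scr, with a median of 0.54. Only Iars was at least 2-fold higher (2.62% of all genes), at 47.0 FPKM in miR-93-5p, 75.8 FPKM in mutant and 34.0 FPKM in scr cells. All 12 lay below 0 in miR-93-5p over mutant, with a median of -0.57. The shares of all genes above and below 0 were not computed, so nothing is read from these sign counts. The median over all genes was 0.014 for mutant over scr and 0.015 for miR-93-5p over mutant. In implied fragments the median of this list for mutant over scr was -0.0038 and Iars was at 0.08. Implied fragments follow the width of the bounds, so they do not show whether the FPKM difference holds.

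Among serine, glycine and one-carbon enzymes 8 of 9 were compared, with a list median of 0.53 for mutant over scr. In that pair 3 were at least 2-fold higher (2.62% of all genes). Mthfd2, the mitochondrial folate enzyme, stood at 23.9, 61.8 and 19.97 FPKM in miR-93-5p, mutant and scr cells, and Cth, which makes cysteine from cystathionine, at 2.54, 9.23 and 2.59 FPKM. Like Asns, both were close in miR-93-5p and scr cells and higher in mutant cells. The third was Psph, whose ratio was 1.58, and 0.81 in implied fragments.

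Proline, glutamate and alanine enzymes were all 7 compared, with a median of 0.25 for mutant over scr. In that pair 3 were at least 2-fold higher (2.62% of all genes). Pycr1, the last enzyme of proline synthesis, stood at 4.14, 9.55 and 2.86 FPKM in miR-93-5p, mutant and scr cells, and Aldh18a1, the first, at 18.7, 45.0 and 21.4 FPKM. Gpt2, an alanine aminotransferase, was the third, at 9.67 FPKM in miR-93-5p, 17.2 FPKM in mutant and 7.54 FPKM in scr cells. Glul, glutamine synthetase, ran the other way, at 13.9 FPKM in miR-93-5p, 39.6 FPKM in mutant and 76.3 FPKM in scr cells. The ratio for mutant over scr was 1.04 for Aldh18a1 and 1.09 for Gpt2, and in implied fragments 0.18 and 6.16.

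Of the stress effectors 11 of 16 were compared, 3 were at least 2-fold higher in mutant than in scr (2.62% of all genes), and the median was 0.23. In that pair 8 lay above 0 and 3 below, a split that was not computed over all genes. Ddit4 was among those below, at 48.5 FPKM in miR-93-5p, 29.6 FPKM in mutant and 59.6 FPKM in scr cells, a log2 ratio of -0.98 for mutant over scr. Gdf15, a secreted stress hormone, stood at 48.7 FPKM in miR-93-5p and 45.5 FPKM in mutant cells, against 19.0 FPKM in scr cells, and so did not separate the 2 microRNA states. Gadd45a, a growth arrest gene, stood at 11.6, 16.8 and 7.03 FPKM in miR-93-5p, mutant and scr cells. Herpud1, of endoplasmic reticulum protein degradation, stood at 38.2 FPKM in miR-93-5p, 198 FPKM in mutant and 39.6 FPKM in scr cells, but its ratio for mutant over scr of 2.29 turned to -1.18 in implied fragments.

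Stress programs beside that of ATF4 were described in the same way. Of the XBP1 and ATF6 endoplasmic reticulum genes 10 of 13 were compared in RNA-seq, none was 2-fold apart in FPKM in any pair of libraries, and the median was 0.20 for mutant over scr and 0.36 for miR-93-5p over scr. In implied fragments 1 was at least 2-fold higher in miR-93-5p over scr and 1 in miR-93-5p over mutant. Xbp1 stood at 44.5, 51.4 and 25.5 FPKM in miR-93-5p, mutant and scr cells. Of the glutathione and NRF2 genes 7 of 9 were compared, with medians of -0.35 for mutant over scr and -0.63 for miR-93-5p over scr. Of these, 1 was past 2-fold downward in mutant over scr (3.63% of all genes) and 2 in miR-93-5p over scr (3.84%). Gclm, which modifies the rate-limiting enzyme of glutathione synthesis, stood at 31.9 FPKM in miR-93-5p, 47.7 FPKM in mutant and 162 FPKM in scr cells, and its ratio of -2.30 for miR-93-5p over scr was -0.05 in implied fragments.

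**Figure D3:**
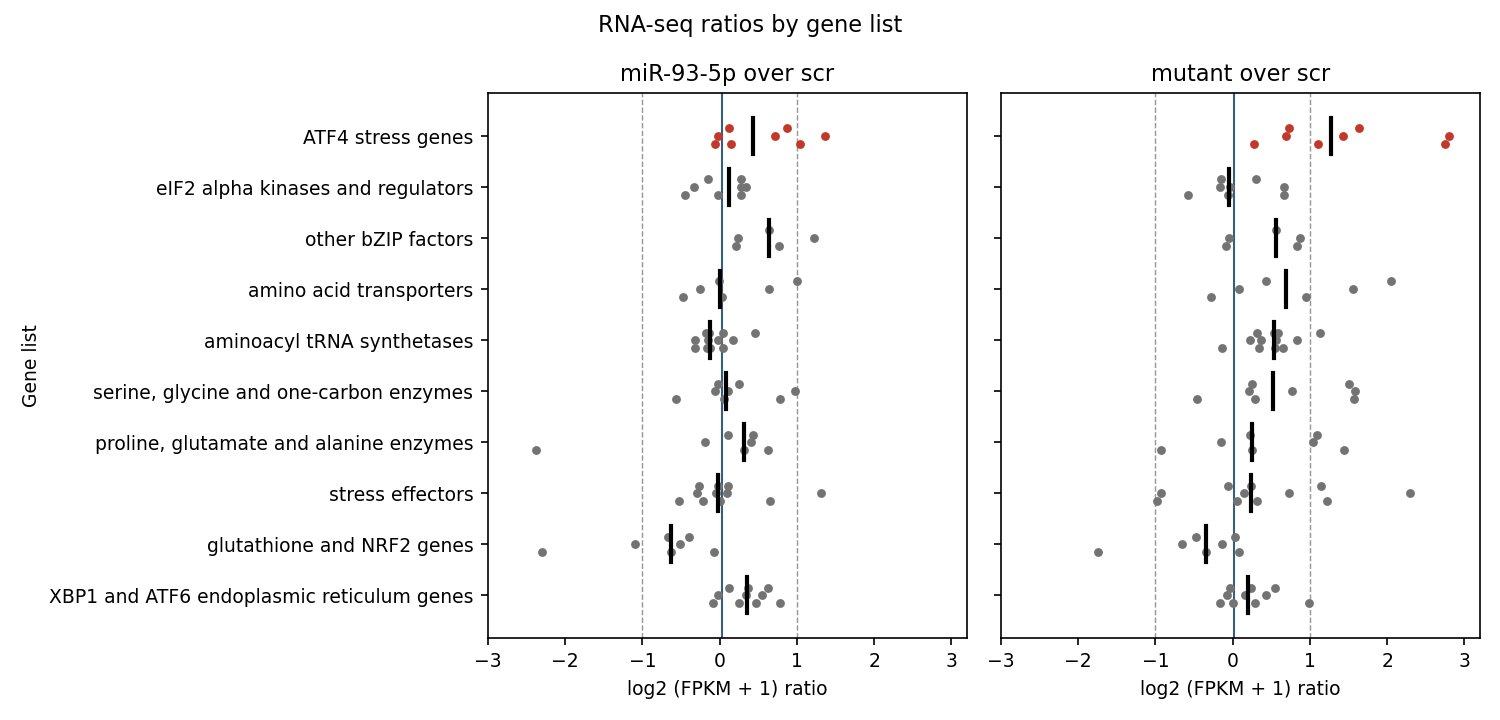
Log2 (FPKM + 1) ratios over scr for the 8 ATF4 stress genes compared (red) and the genes of 9 other lists (grey), miR-93-5p over scr on the left and mutant over scr on the right, 1 point per gene. Black bars are list medians, the blue line is the median of all 8519 genes and dashed lines mark 2-fold, and the ATF4 stress genes have a median of 0.43 on the left and 1.27 on the right.

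The genes whose pair of ratios over scr lay nearest to that of Trib3 were found by Euclidean distance over the 3 libraries, among all 8519 genes. Outside the 10 genes the nearest was Sprr1a, a cornified envelope protein, at a distance of 0.143, with 267, 606 and 96.1 FPKM in miR-93-5p, mutant and scr cells. Only Sprr1a was nearer to Trib3 than Chac1, whose distance was 0.327. Next came Rchy1, a ubiquitin ligase, with a distance of 0.483, and Il1rn, the interleukin-1 receptor antagonist, with 0.511, at 11.3, 26.2 and 2.48 FPKM in those libraries. The fourth was Btc, the growth factor betacellulin, with 0.653, and the fifth Prl2c2 with 0.707, a member of a family of near-identical genes whose reads can be split between copies. Rchy1 stood at 50.8 FPKM in miR-93-5p, 139 FPKM in mutant and 25.0 FPKM in scr cells, Btc at 1.92, 8.78 and 0.727 FPKM in those cells, and Prl2c2 at 58.4, 119 and 27.03 FPKM. In implied fragments the ratio for miR-93-5p over scr of Sprr1a turned to -0.25 and the ratio for mutant over scr of Rchy1 to -0.32. With FPKM summed over loci, the Btc ratio was 1.15 for mutant over scr and turned to -0.59 for miR-93-5p over scr, against 0.76 at its matched locus. Such a sum grows with the number of loci assembled and is not a level of the gene.

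The pulldown libraries gave another picture of the same mRNAs. Trib3 stood at 6.95 FPKM [5.81 to 8.09] in miR-93-5p, 10.2 FPKM [9.10 to 11.3] in mutant and 7.85 FPKM [6.74 to 8.96] in scr pulldowns. Chac1 stood at 4.38 FPKM [3.37 to 5.38] in miR-93-5p, 6.00 FPKM [5.00 to 7.01] in mutant and 5.17 FPKM [4.10 to 6.23] in scr pulldowns. Mutant was again the highest for both, but neither reached 2-fold in any pair, with log2 ratios for mutant over scr of 0.34 ± 0.12 for Trib3 and 0.18 ± 0.16 for Chac1. The bounds of Trib3 in mutant did not overlap those in the other 2 pulldowns, while all bounds of Chac1 overlapped. Pulldown levels were not divided by RNA-seq levels, so each holds both how much of the mRNA was present and how much was recovered.

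Of the 9 genes compared in the pulldown, 1 was at least 2-fold higher in mutant than in scr, where 21.8% of all 5258 genes were, and 3 were lower (23.0%). Between miR-93-5p and scr 1 was higher (11.8%) and 3 were lower (33.8%), and between miR-93-5p and mutant none was higher (4.89%) and 1 was lower (26.7%). Over 9 genes these counts do not stand apart from the background shares. The median log2 ratio of the 9 genes was -0.097 for mutant over scr and -0.16 for miR-93-5p over scr, against -0.060 and -0.48 over all genes. The cause of the shift of all genes by -0.48 in miR-93-5p over scr was not tested. The sum of implied fragments was lower in the miR-93-5p pulldown, but it is not a read count, and FPKM is already scaled to library size. Over all assembled loci, not only those of the 5258 genes, the median span was 2438 bp in miR-93-5p, 9661 bp in mutant and 9781 bp in scr.

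Atf4 was the gene at least 2-fold higher in the pulldowns of both microRNA states, at 784 FPKM [747 to 821] in miR-93-5p and 606 FPKM [594 to 617] in mutant, against 235 FPKM [220 to 251] in scr. Its log2 ratio was 1.73 ± 0.06 for miR-93-5p over scr, which is 2.21 relative to the median of all genes, and 1.36 ± 0.05 for mutant over scr. The assembled Atf4 loci were of unequal length, 1516 bp in miR-93-5p, 1952 bp in mutant and 1258 bp in scr, and under a stricter overlap of 0.9 Atf4 left the comparison. In implied fragments Atf4 was also higher, by log2 ratios of 1.62 for miR-93-5p over scr and 3.50 for mutant over scr, while its ratio for miR-93-5p over mutant turned from 0.37 to -1.89.

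The other bZIP genes were closer. Atf5 stood at 64.5 FPKM [60.4 to 68.7] in miR-93-5p, 52.1 FPKM [48.6 to 55.6] in mutant and 36.9 FPKM [33.8 to 40.0] in scr pulldowns. Ddit3 was well covered in all 3, at 157 FPKM [141 to 172] in miR-93-5p, 102 FPKM [90.3 to 113] in mutant and 120 FPKM [111 to 129] in scr, with a ratio for mutant over scr of -0.24 ± 0.10, and of -1.35 in implied fragments. Atf3 was highest with miR-93-5p, at 12.5 FPKM [10.9 to 14.1], against 6.39 FPKM [5.41 to 7.37] in mutant and 6.90 FPKM [5.83 to 7.98] in scr. The Atf3 ratio for miR-93-5p over scr was 0.77 ± 0.13, or 1.26 relative to the median of all genes. Atf5 was at 1.27 on that relative scale, and Ddit3 at 0.87.

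**Figure D4:**
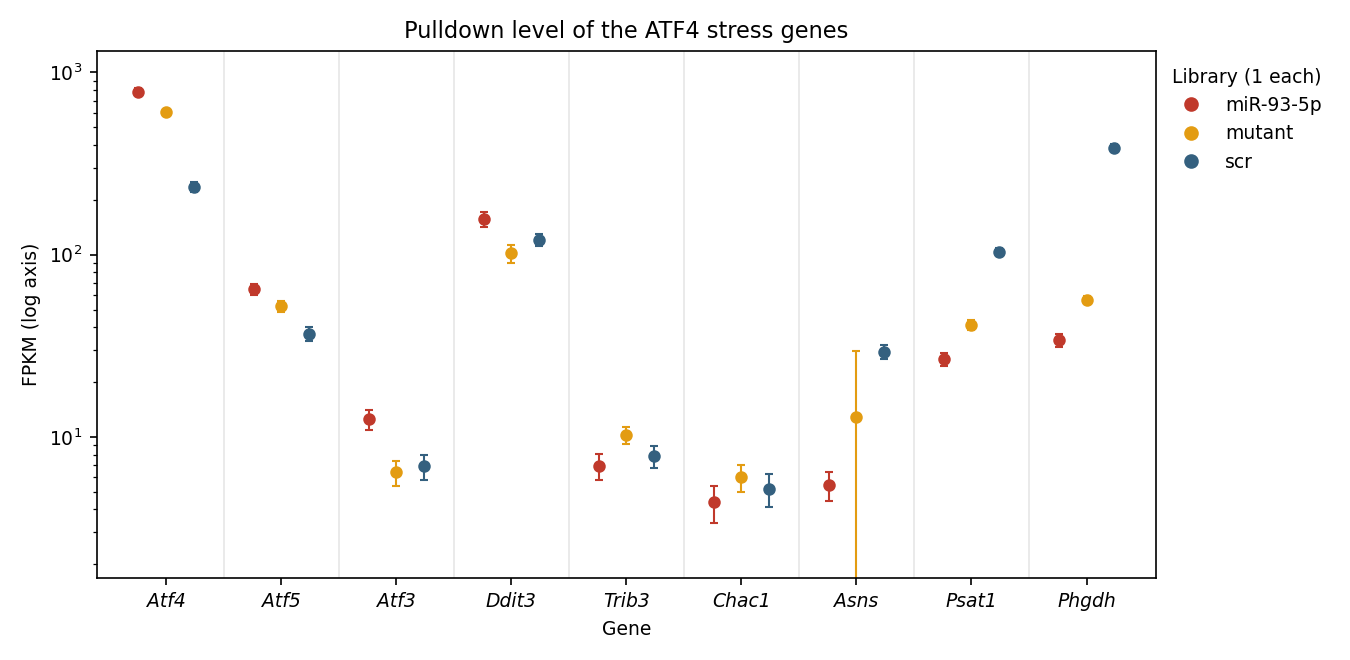
Pulldown level of the 9 genes compared on a log axis of FPKM, 1 point per library with the deposited bounds as bars, in the order miR-93-5p, mutant and scr. Atf4 is lowest in scr while Asns, Psat1 and Phgdh are highest there, and the bar of Asns in mutant runs off the bottom of the axis because its lower bound is 0.

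The 3 synthesis enzymes were lowest in the miR-93-5p pulldown. Phgdh stood at 34.0 FPKM [31.1 to 36.9] in miR-93-5p and 56.2 FPKM [53.5 to 59.0] in mutant, against 385 FPKM [367 to 402] in scr. Psat1 stood at 26.7 FPKM [24.5 to 28.9] in miR-93-5p and 41.0 FPKM [38.4 to 43.6] in mutant, against 104 FPKM [98.2 to 109] in scr. Asns stood at 5.46 FPKM [4.47 to 6.45] in miR-93-5p and 12.9 FPKM [0 to 29.7] in mutant, against 29.3 FPKM [26.8 to 31.8] in scr, where the mutant bounds cover both other values. For Phgdh the log2 ratio for miR-93-5p over scr was -3.46 ± 0.07 in FPKM and -1.10 in implied fragments, for Psat1 -1.92 ± 0.07 and -0.61. The size of both differences thus depended on the scale, while their direction in that pair did not. Asns had too few implied fragments in mutant to be compared on that scale. Relative to the median of all genes, the FPKM ratio for miR-93-5p over scr was -2.98 for Phgdh, -1.43 for Psat1 and -1.75 for Asns. For Slc7a11 the only pulldown locus was a piece of 1118 bp in the miR-93-5p library, at 2.53 FPKM, and no comparison was made.

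Among the other lists in the pulldown, the 10 XBP1 and ATF6 genes compared were all highest in mutant in FPKM. Of these, 9 passed 2-fold upward in mutant over scr (21.8% of all 5258 genes did), with a median log2 ratio of 1.78. In miR-93-5p over mutant 8 passed it downward (26.7% of all genes), with a median of -1.79. Calr, a calcium-binding chaperone, stood at 87.7 FPKM in miR-93-5p, 772 FPKM in mutant and 142 FPKM in scr pulldowns. In implied fragments 5 of the 10 were 2-fold higher in mutant than in scr, the median was 1.07, and Calr was at 0.23, while its ratio for miR-93-5p over mutant of -3.12 turned to 0.70. In FPKM, the next highest list count upward in mutant over scr was 4 of 10, in the stress effectors. In miR-93-5p over mutant, 8 of 11 aminoacyl tRNA synthetase list genes also passed 2-fold downward, with a median of -1.06. The downward count was thus not particular to the endoplasmic reticulum genes.

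The histone marks were measured in libraries separate from the RNA-seq. H3K4me3, the mark of active promoters, lay in the locus of 9 of the 10 genes in miR-93-5p cells and of all 10 in scr cells, where 56.4% and 56.1% of 18808 protein-coding genes had a peak. H3K27me3, the Polycomb mark of silencing, lay in none of the 10 loci in either state, where 18.9% of genes in miR-93-5p cells and 20.3% in scr cells had a peak. H3K9me3, the mark of heterochromatin, lay in 2 loci in miR-93-5p cells, Slc7a11 and Psat1 (20.2% of genes), and in 1 in scr cells, Slc7a11 (15.3%). The Psat1 peak lay outside the assembled locus, from -6791 to -5766 bp relative to the end of that locus. Its score was 58.7, where the lowest score of that list was 50. Within 2000 bp of the start, H3K4me3 was found at the same 9 genes in miR-93-5p cells (53.2% of 15078 genes) and 10 in scr cells (53.5%). For Psat1 the start used is the end of its assembled locus, 21742 bp from the annotated 5′ end, while all other genes have their annotated start. At its annotated end Psat1 had no H3K4me3 peak within 2000 bp in either state, and with that end 8 genes had one in miR-93-5p cells and 9 in scr cells. In that window H3K27me3 was found at none in miR-93-5p (8.08%) and 1 in scr (13.7%), and H3K9me3 at 2 in miR-93-5p (6.13%) and 2 in scr (4.26%). Peaks were called per library, and no mark was assayed in mutant cells, so the state with the highest RNA level of most of these genes has no chromatin data. Peak scores were not compared between libraries, since they depend on depth and 8853 of 16173 H3K4me3 peaks in miR-93-5p and 8721 of 14595 in scr shared 1 score of 3100.

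The H3K4me3 peak over the start of Trib3 covered 2973 bp in miR-93-5p cells and 5807 bp in scr cells. The upstream edges were nearly the same, at 710 bp before the start in miR-93-5p and 724 bp in scr, while the downstream edge lay 2262 bp into the gene in miR-93-5p and 5082 bp in scr. The ratio of widths was 0.512, and 0.276% of the 7621 genes with such a peak in both states had a lower one. Trib3 RNA was higher in miR-93-5p than in scr cells.

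Narrower peaks were found at most of the other genes too. The width at Chac1 was 3583 bp in miR-93-5p and 4590 bp in scr cells, and at Ddit3 it was 3129 bp in miR-93-5p and 4057 bp in scr cells. At Asns it was 2240 bp in miR-93-5p and 3136 bp in scr cells, and at Psat1 3179 bp in miR-93-5p and 4298 bp in scr cells. The ratios of these 4 genes lay between 0.714 and 0.781, and at most 2.55% of all genes had lower ones. At Ddit3 a second H3K4me3 peak lay just before the start peak in both states. Relative to the start it ran from -4692 to -230 bp in miR-93-5p and from -4428 to -308 bp in scr. The Ddit3 width and upstream edge thus depend on where those peaks were split. Atf5 had 6191 bp in miR-93-5p and 6833 bp in scr, a ratio of 0.906, and Phgdh 3729 bp in miR-93-5p and 3860 bp in scr, a ratio of 0.966. Atf4 and Atf3 were wider in miR-93-5p, at 5534 bp against 4867 bp in scr for Atf4 and at 4328 bp against 3922 bp in scr for Atf3.

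In all, 7 of 9 genes had a narrower H3K4me3 peak in miR-93-5p than in scr cells, where 38.0% of 7621 genes did, and the median width ratio was 0.781, against 1.03 over all genes. The downstream edge differed more than the upstream one. It lay nearer to the start in miR-93-5p for 8 of 9 genes, against 36.2% of all genes, with a median difference of -796 bp, against 67 bp over all. The upstream edge lay nearer for 5 of 9, against 48.2% of all genes, with a median of -14 bp, against 5 bp over all. Without Psat1, 6 of 8 genes were narrower, with a median ratio of 0.843, and the edge lay nearer downstream for 7 of 8 and upstream for 4 of 8. Each state had 1 H3K4me3 library, and the part of depth or enrichment in these widths was not tested.

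**Figure D5:**
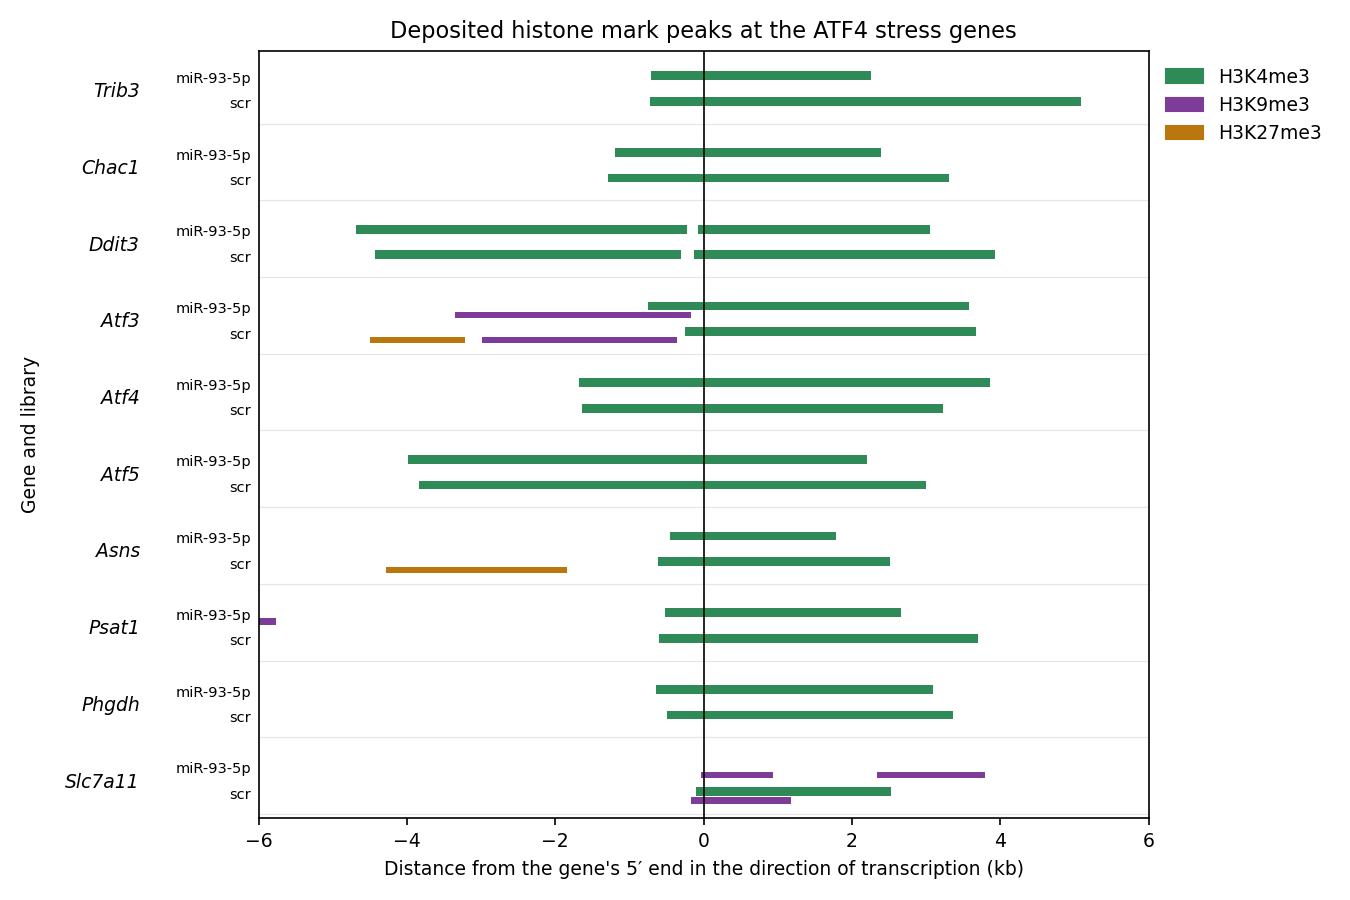
Deposited peaks of H3K4me3 (green), H3K9me3 (purple) and H3K27me3 (orange) by distance in kb from the 5′ end of each gene (for Psat1 the end of its assembled locus) in the direction of transcription, miR-93-5p above scr for each gene. The green bars of Trib3, Chac1, Ddit3, Asns and Psat1 end nearer to the start in miR-93-5p than in scr, and Slc7a11 has a green bar in scr alone.

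Slc7a11 was the gene without H3K4me3 in miR-93-5p cells. In scr cells a peak of 2626 bp covered its start, with the authors' score of 496, while the start peaks of the other 9 genes all had 3100. Of 8066 genes with H3K4me3 within 2000 bp of the start in scr, 121 (1.5%) had none in miR-93-5p. H3K9me3 covered the start in both states, over 980 bp in miR-93-5p and 1353 bp in scr, and the gene body held further peaks, making 6 in miR-93-5p and 3 in scr. The whole H3K9me3 list held 25879 peaks over 39236756 bp in miR-93-5p, against 15888 over 21558002 bp in scr. More H3K9me3 peaks in miR-93-5p are thus not by themselves a difference at Slc7a11. The RNA-seq level was low in both, 0.901 FPKM in miR-93-5p and 0.714 FPKM in scr, with overlapping bounds, so the state without the peak did not have the lower FPKM.

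Atf3 carried H3K9me3 just before its start, beside H3K4me3 over it, in both states. The H3K9me3 peak spanned 3186 bp in miR-93-5p, from -3354 to -169 bp relative to the start, and 2624 bp in scr, from -2989 to -366 bp. Since the H3K9me3 list covered more bases in miR-93-5p, the greater width there is not by itself a difference at Atf3. Both marks within 2000 bp of the start were found at 259 of 15078 genes in miR-93-5p (1.72%) and at 167 in scr (1.11%). H3K27me3 peaks lay upstream of Asns and of Atf3 in scr cells alone, from -4275 to -1842 bp relative to the start of Asns and from -4491 to -3222 bp relative to that of Atf3. The H3K27me3 list of scr covered 60013714 bp, against 23684648 bp in miR-93-5p, so a peak found in scr alone is not by itself a difference at that gene.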

How the data were processed

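RNA-seq and pulldown libraries of miR-93-5p, mutant and scr LEPC cells and 6 ChIP-seq peak lists were used, 1 library per assay and state (12 of 14 samples). The 2 input samples were not analysed here. The deposited values are FPKM per assembled locus with lower and upper bounds, per the file headers. TopHat2, Cufflinks, Cuffdiff, CASAVA 1.4, Bowtie and MACS on mm9 are named in the submitters' processing notes, and settings are not given in the sources used here. The deposited peak score is the authors' own value per peak.

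Loci were matched to genes by mutual best overlap of at least 0.5 of the joint length, on 35620 mm9 gene loci that the files list (31023 named) for RNA-seq and on RefSeq GRCm38.p6 genes for the pulldown, whose loci lie on that build although mm9 is noted. Genes with a mean of at least 1 FPKM were compared as log2(FPKM + 1), with 2-fold as the limit. As an alternative, implied fragments were computed from each value and its bounds, scaled to a median ratio of 1, with 10 added and at least 3 required. No counts or replicates exist in these files, so no test was run. Implied fragments follow the width of the bounds and are not read counts, and depth is known only as their sum. Python 3.11.15, pandas 2.3.3, numpy 2.4.6 and matplotlib 3.10.9 were used. Matching and ratios were run on simulated data with a single whole locus per gene and bounds set from the simulated fragment counts. That simulation could not test split loci, or implied fragments where bounds are set otherwise. Pathway genes named were up to 4 per list with the largest RNA-seq ratio of any pair, and the 5 genes nearest to Trib3, with markers and a few others of a list, such as Calr in the pulldown, named for a stated value. The members and lists were chosen with earlier results of these data known.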

Additional observations from a re-analysis of the deposited data

How the results depend on the processing

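The counts of ATF4 stress genes past 2-fold did not move by over 1.5 times with a pseudocount of 0.1, without the minimum FPKM, with FPKM summed over loci, or with Psat1 added from its single locus. In implied fragments, per locus and summed over loci, the RNA-seq counts became 1 lower in mutant over scr, 4 higher in miR-93-5p over scr and 2 higher in miR-93-5p over mutant. The pulldown counts became 1 lower in mutant over scr, 3 higher and 1 lower in miR-93-5p over scr, and 2 higher (1 when summed) in miR-93-5p over mutant. With the pulldown median set to 0 they were 3 higher in miR-93-5p over scr, and 2 higher and 0 lower in miR-93-5p over mutant. An overlap of 0.9 left 0 higher in mutant over scr and 0 in miR-93-5p over scr, since Atf4 was no longer compared. Within 2000 bp of the start, 1 gene had H3K27me3 and 2 had H3K9me3 in scr, whichever start Psat1 had, and at a score of at least 100, 1 had H3K9me3 in miR-93-5p. Of the ratios that were at least 2-fold, implied fragments, per locus and summed, reversed Atf3 (-1.33 and -1.32), Herpud1 (-1.18 and -1.17) and Rchy1 (-0.32 and -0.31) for mutant over scr, Herpud1 (2.05 and 2.06) and Rchy1 (0.72 and 0.73) for miR-93-5p over mutant, Sprr1a (-0.25 and -0.24) for miR-93-5p over scr, and Calr (0.70 and 0.56) for miR-93-5p over mutant in the pulldown. Summed FPKM grows with the number of pieces. Of ratios of the ATF4 stress genes under 2-fold, it turned those of Slc7a11 for mutant over scr (-0.42) and miR-93-5p over mutant (0.97). Implied fragments turned that of Slc7a11 for miR-93-5p over scr (-0.45), those of Atf4 for mutant over scr (-0.05) and of Atf4 (1.81) and Atf3 (2.38) for miR-93-5p over mutant, and in the pulldown those of Trib3 (0.20), Chac1 (0.28) and Ddit3 (-0.21) for miR-93-5p over scr and of Atf4 (-1.89) and Psat1 (0.09) for miR-93-5p over mutant. Summed implied fragments also turned Atf3 for mutant over scr in the pulldown (0.03). With the pulldown median at 0, Trib3 (0.33) and Chac1 (0.28) for miR-93-5p over scr and Chac1 (0.05) for miR-93-5p over mutant changed sign. The cause was not tested. The summed implied fragments and both settings of Psat1 were chosen after seeing the data. No paired analysis was possible because each group had 1 library, and for that reason no library could be left out.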
